A study of Mus musculus with 35 samples.

Results

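The 7 genes Calcoco2, Cpn1, Fam25c, AU015836, Eef2k, Pim2 and Ttc32 were picked by name out of 44853 genes measured by RNA-seq because their levels rose at 16 h of GATA6 induction and lay below the starting level at 168 h. Those values are therefore given as a description and support no statement. The tests of the 7 genes that follow compare groups that the choice did not use. In the induction series the spread behind these tests was estimated over all 23 libraries, those of 0, 16 and 168 h included. All 7 genes were found in the induction table and in the table of the siRNA experiment. To place the choice, the genes past the call limits of this report in both of those contrasts with 0 h, a log2 difference above 1 at 16 h and below -1 at 168 h with an adjusted p under 0.05, were counted. They were 23, the 7 and 16 others that include Dnmt3a, Dnmt3b, Foxh1 and Ascl2. Closest to those limits among the 7 were the rise of Pim2 (1.10 on the log2 scale) and the fall of Eef2k (-1.19), and just inside them among the other genes were the rise of Foxh1 (1.02) and the fall of Dnmt3a (-1.01).

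The induction series followed KH2 ES cells (C57BL/6 x 129/Sv) that carry a GATA6 expression cassette under the control of doxycycline (Dox), with an HA-tagged protein as product. The clone behind the induction libraries is not given in the sources used here. Each time point has 3 libraries, taken from untreated cells (0 h) and from cells given Dox (1 µg/mL) for 16, 24, 48, 72, 96 or 168 h. These libraries were set beside 2 libraries of untreated wild-type XEN cells, line X10 from CD1 mice, an extra-embryonic endoderm line that serves as a reference for primitive endoderm (PrE). In the siRNA series the same kind of inducible cells, from a single clone, received a control siRNA (siCTL, 6 libraries) or siRNA against Oct4, the product of Pou5f1 (siOct4, 6 libraries), and 48 h of Dox. ES cells were grown with serum, LIF and mitotically inactivated embryonic fibroblast feeders, and XEN cells in the same way without LIF. The line, the strain, LIF and the GATA6 cassette therefore cannot be told apart in any comparison with XEN cells. Against induced cells, Dox is a further difference of this kind. The study describes independent replicates for the induction series and independent knockdown experiments at this stage of induction, and the sample labels do not say what the replicate numbers stand for.

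The 7 genes belong to no common family. Calcoco2 encodes NDP52, an autophagy receptor that links cargo to the ATG8 proteins of the growing autophagosome. Eef2k encodes the calcium- and calmodulin-dependent kinase that phosphorylates elongation factor eEF2 and so slows translation elongation, and Pim2 encodes a constitutively active serine/threonine kinase of the PIM family, which acts in cell survival and lies downstream of JAK-STAT signalling. Cpn1 encodes the catalytic subunit of carboxypeptidase N, a secreted enzyme that removes basic residues from the C-terminus of peptides such as kinins and anaphylatoxins. Ttc32 encodes a protein with tetratricopeptide repeats, which are protein interaction motifs. GATA6 is a zinc finger transcription factor that binds GATA motifs and drives the PrE fate in the early embryo, while OCT4 and SOX2 bind octamer and SOX motifs and maintain pluripotency.

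On GRCm38 (mm10) with the GENCODE M21 annotation, Calcoco2 lies at chr11:96099326-96111964 on the minus strand, Cpn1 at chr19:43956307-43986556 on the minus strand and Fam25c at chr14:34351881-34355433 on the minus strand. AU015836 lies at chrX:93968659-93975470, Eef2k at chr7:120842831-120907450, Pim2 at chrX:7878262-7883432 and Ttc32 at chr12:9029997-9041988, all on the plus strand. AU015836 is a protein-coding gene in GENCODE and a long non-coding RNA in RefSeq. Eef2k overlaps Gm15774, an antisense gene listed at no more than 0.0507 TPM (a length-corrected share of transcripts) in any induction library, and a short unconfirmed transcript, Gm45047. Calcoco2 shares a stretch of 940 bases at 93.7% identity with Gm9697, and Pim2 shares 798 bases at 94.7% identity with Gm21182, so reads of these pairs could be split, and the highest values of the partners were 0.122 and 0.234 TPM.

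Promoter windows of 300 bases, from 250 before to 50 after the start site, were matched by symbol in RefSeq (GRCm38.p6) for 4 of the 7 genes, Cpn1, Fam25c, Eef2k and Pim2, and none was matched for Calcoco2, AU015836 and Ttc32. Motifs of GATA, OCT4 and SOX factors were searched on both strands: the GATA motif as AGATAA or AGATAG and as TGATAA or TGATAG, the octamer as ATGCAAAT, and the SOX motif as ACAATG or ACAAAG. The motifs were chosen after the sequences had been seen, and a match is a description of letters, not of binding. The 3 windows with a match are shown because they hold the letters that GATA6, OCT4 or SOX factors are known to bind, which stand in capitals.
Pim2: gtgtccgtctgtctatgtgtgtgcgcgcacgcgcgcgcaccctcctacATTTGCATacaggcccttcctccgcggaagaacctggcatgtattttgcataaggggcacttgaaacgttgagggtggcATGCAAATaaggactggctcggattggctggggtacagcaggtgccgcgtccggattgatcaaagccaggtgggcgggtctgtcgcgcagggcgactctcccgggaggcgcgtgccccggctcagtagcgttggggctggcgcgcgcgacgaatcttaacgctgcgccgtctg
Fam25c: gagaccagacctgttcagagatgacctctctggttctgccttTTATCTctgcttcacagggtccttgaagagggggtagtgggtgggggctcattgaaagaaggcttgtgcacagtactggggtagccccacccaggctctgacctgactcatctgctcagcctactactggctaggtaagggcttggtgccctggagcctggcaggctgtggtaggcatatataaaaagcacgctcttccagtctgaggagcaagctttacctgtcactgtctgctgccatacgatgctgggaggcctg
Cpn1: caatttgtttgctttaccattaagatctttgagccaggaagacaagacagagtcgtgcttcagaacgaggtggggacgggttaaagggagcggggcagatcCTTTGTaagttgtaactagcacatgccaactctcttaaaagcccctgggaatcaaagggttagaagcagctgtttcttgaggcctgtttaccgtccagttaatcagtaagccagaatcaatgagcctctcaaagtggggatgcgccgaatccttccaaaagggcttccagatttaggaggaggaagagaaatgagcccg

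The Pim2 window (chrX:7878056-7878355, plus strand) held the octamer at 2 places, on the reverse strand starting 202 bases and on the forward strand starting 123 bases before the start site. Of 32851 mouse promoter windows of the same length, 1.74% held the octamer at least at 1 place and 0.107% at 2 or more. The Fam25c window (chr14:34355344-34355643, minus strand) held a GATA motif on the reverse strand 208 bases before the start site, as did 29.8% of all windows at some place. The Cpn1 window (chr19:43986471-43986770, minus strand) held a SOX motif on the reverse strand 149 bases before the start site, and 28.6% of all windows held a SOX motif. The letters searched were not in the Eef2k window nearest to the GENCODE start (chr7:120842581-120842880, plus strand).

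Levels are TPM, which scale each library's transcripts to a common total after correction for length, so that levels of different genes can be compared, and the number of reads behind them is unknown. Log2 values and differences are on the log2(TPM + 1) scale, which understates changes at low levels. The labels were examined on Gata6 and Pou5f1. Gata6 lay between 0.193 and 0.375 TPM at 0 h and between 129 and 138 TPM at 16 h. Pou5f1 lay between 782 and 1194 TPM with siCTL and between 282 and 387 TPM with siOct4, lower in all 6 pairs of equal number. The summed TPM of 16 PrE markers rose from 151 to 248 at 0 h to between 33836 and 34698 at 168 h, against 15878 to 15997 in XEN cells. The 11 feeder fibroblast markers, all of which were listed, summed to between 37.8 and 115 TPM at 0 h, between 78.9 and 146 TPM at 16 h and between 131 and 285 TPM at 168 h. None had a mean of 0 in an induced group, and their part in the levels described here was not tested. In these bulk samples, fewer cells expressing a gene and less RNA per cell cannot be told apart.

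Calcoco2 had the second highest level of the 7 at its peak. Its 3 libraries measured 18.2, 18.8 and 38.9 TPM at 0 h, 189, 188 and 208 TPM at 16 h and 136, 143 and 158 TPM at 24 h. They then fell to 52.8, 44.9 and 54.6 TPM at 48 h, 15.5, 18.5 and 26.9 TPM at 72 h, 11.3, 12.6 and 12.8 TPM at 96 h and 0.692, 0.325 and 1.51 TPM at 168 h. Every library at 16, 24 and 48 h lay above every library at 0 h, and every library at 96 h lay below. The 0 h library numbered 3, at 38.9 TPM, stood apart from the others, and its feeder marker sum was 115 TPM against 49.2 and 37.8 TPM in those. At 168 h the feeder sums were 131 to 285 TPM while Calcoco2 lay between 0.325 and 1.51 TPM. The part of feeder cells in the Calcoco2 level was not tested.

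The 2 kinase genes had lower peaks and kept more of them. Eef2k measured 21.3, 18.6 and 18.9 TPM at 0 h, 48.4, 48.8 and 57.2 TPM at 16 h and 37.6, 39.3 and 50.2 TPM at 24 h. At 48 h its libraries, at 23.4, 17.6 and 22.7 TPM, overlapped those of 0 h, and at 72 h they gave 15.6, 15.9 and 6.29 TPM. From 96 h (7.79, 9.81 and 9.05 TPM) to 168 h (10.6, 8.71 and 5.53 TPM) the libraries overlapped. Eef2k therefore levelled off at 16.1% of its peak mean, the highest remainder of the 7 genes at 168 h. Pim2 had the lowest SE of the 7 genes in the tests of the induction series. It measured 19.4, 22.9 and 20.3 TPM at 0 h, 48.2, 45.2 and 44.2 TPM at 16 h and 43.9, 43.2 and 38.8 TPM at 24 h. Its libraries fell to 15.3, 16.1 and 14.3 TPM at 48 h, already below all of 0 h, and to 9.36, 8.89 and 8.43 TPM at 72 h. The levels at 72 h and at 96 h (8.45, 8.82 and 8.72 TPM) overlapped, and a lower level followed at 168 h (4.61, 4.91 and 5.35 TPM).

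Cpn1, the carboxypeptidase N subunit, started lowest and had the largest rise. It measured 2.19, 2.59 and 2.85 TPM at 0 h, 44.8, 48.0 and 55.5 TPM at 16 h and 43.6, 46.0 and 41.6 TPM at 24 h. The mean rose 19.4-fold from 0 to 16 h, while the other 6 genes rose 2.1- to 7.7-fold over the same hours. Cpn1 also stayed up longest: its libraries measured 25.5, 22.9 and 24.7 TPM at 48 h and 4.33, 4.93 and 7.39 TPM at 72 h, still above all of 0 h. They overlapped the 0 h libraries at 96 h (2.33, 2.82 and 2.15 TPM) and fell to 0.0712, 0.274 and 0.071 TPM at 168 h.

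Fam25c had the highest level of the 7 and was the only one whose highest mean lay at 24 h. It measured 72.1, 82.7 and 152 TPM at 0 h, 225, 198 and 222 TPM at 16 h and 229, 263 and 284 TPM at 24 h, and each library at 24 h exceeded each at 16 h. Its levels dropped to 87.3, 85.6 and 122 TPM at 48 h, which overlapped 0 h, then to 13.8, 15.7 and 26.2 TPM at 72 h and 4.97, 4.72 and 9.17 TPM at 96 h. At 168 h it measured 0.427 and 0.953 TPM in 2 libraries and was listed at 0 in the library numbered 2. The library numbered 3 was the highest for Fam25c at 0, 24, 48, 72, 96 and 168 h.

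AU015836 measured 32.7, 31.1 and 24.3 TPM at 0 h, 68.9, 71.9 and 87.7 TPM at 16 h and 59.4, 56.4 and 78.7 TPM at 24 h. It fell through 37.2, 31.9 and 45.7 TPM at 48 h, which overlapped 0 h, and 22.8, 26.2 and 12.5 TPM at 72 h to 5.62, 6.76 and 6.88 TPM at 96 h. The lowest level of the series was 2.86, 2.80 and 1.31 TPM at 168 h. Ttc32 had the lowest peak, with 10.7, 10.3 and 12.8 TPM at 0 h and 30.6, 31.5 and 34.3 TPM at 16 h. It lost the most by 24 h, to 18.7, 19.5 and 21.1 TPM, which is 61.4% of its own 16 h mean, against 74.7% or more for the other genes. It then measured 8.38, 8.85 and 11.0 TPM at 48 h, 9.33, 9.02 and 4.72 TPM at 72 h, 3.37, 3.86 and 5.30 TPM at 96 h and 3.40, 2.14 and 2.09 TPM at 168 h. For Ttc32, Eef2k and AU015836 the 72 h library numbered 3 lay well below the other two. In that library the PrE markers summed to 11155 TPM against 15001 and 15439 TPM, and the feeder markers to 149.97 TPM against 55.1 and 64.0 TPM, and the part of either in these values was not tested.

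**Figure D1:**
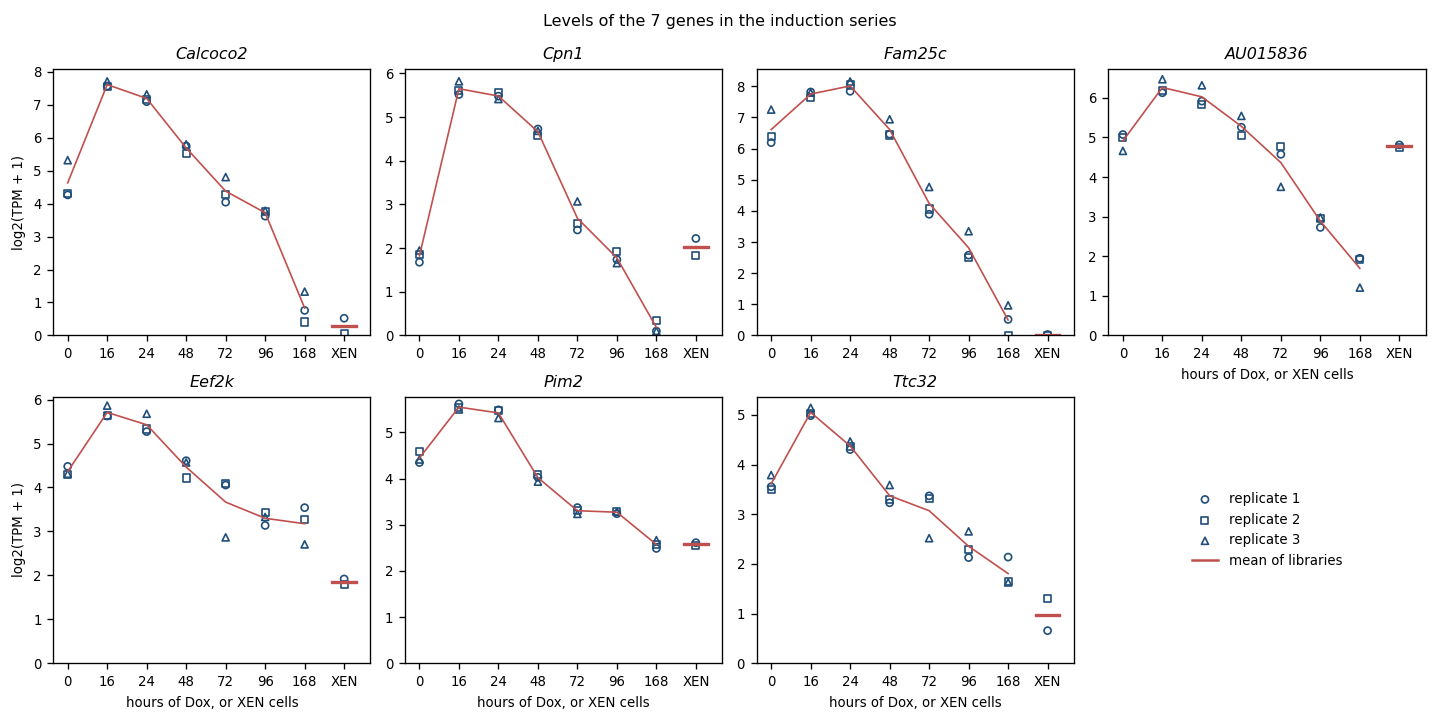
Levels of the 7 genes as log2(TPM + 1) for every induction library (points, shaped by replicate number) over 0 to 168 h of Dox, spaced evenly rather than by time, and in XEN cells, with lines and short bars for group means. All 7 rise to a maximum at 16 or 24 h and decline to 168 h, and AU015836 and Cpn1 are higher in the XEN libraries than at 168 h. The levels at 0, 16 and 168 h were used to choose the genes.

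All 7 genes turned at 16 or 24 h, which the choice for a rise at 16 h fixed in part, and the depth of the decline differed between them. The highest mean was at 16 h for 6 genes and at 24 h for Fam25c, 2.2- to 19.4-fold over 0 h. At 48 h the means stood at 26.1% (Calcoco2) to 50.2% (AU015836) of the peak, at 96 h at 2.43% (Fam25c) to 18.9% (Pim2) and at 168 h at 0.178% (Fam25c) to 16.1% (Eef2k). The mean fell under the 0 h mean at 48 h for Fam25c, Pim2 and Ttc32. It did so at 72 h for Calcoco2, AU015836 and Eef2k, and at 96 h for Cpn1. Only in Pim2 did every 48 h library lie below every 0 h library. In Fam25c the 48 h median (87.3 TPM) was above the 0 h median (82.7 TPM). The highest 48 h library of Ttc32, at 11.0 TPM, lay within its 0 h range of 10.3 to 12.8 TPM. The order of the fall from 0 h to 168 h was not that of the rise. By ratio of means, Fam25c was lower by 222-fold, Calcoco2 by 30.0-fold, Cpn1 by 18.3-fold and AU015836 by 12.6-fold. Ttc32, Pim2 and Eef2k were lower by 4.4-, 4.2- and 2.4-fold. The 168 h means of Fam25c (0.460 TPM), Calcoco2 (0.842 TPM) and Cpn1 (0.139 TPM) were under 1 TPM, so their ratios and remainders are uncertain. On the log2(TPM + 1) scale, which understates changes at low levels, Cpn1 differed by -1.64. That fall was smaller than those of AU015836 (-3.22), Pim2 (-1.87) and Ttc32 (-1.81) and larger than that of Eef2k (-1.19). The place of Cpn1 in the order thus depends on the scale. Over the 8 group means, the Pearson correlation between pairs of the 7 genes ranged from 0.63 to 0.98 with a median of 0.88 over 21 pairs. These are descriptions, since all genes were read in the same libraries and were chosen for a like course.

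**Figure D2:**
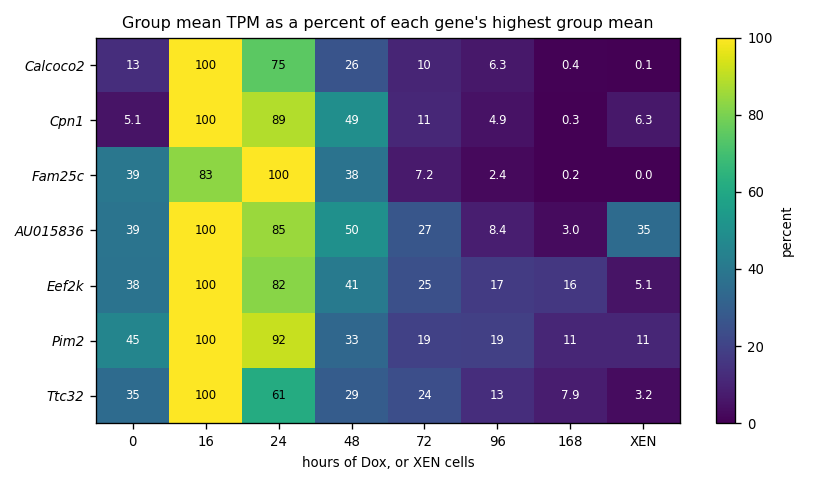
Group mean TPM of each gene as a percent of its highest group mean, over hours of Dox and in XEN cells (colour and printed number). Remainders at 168 h range from 0.178% for Fam25c to 16.1% for Eef2k, and AU015836 stands at 34.8% in XEN cells against 3.05% at 168 h. The genes were chosen for a low level at 168 h.

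The decline was tested between 24 and 96 h, groups that the choice of genes did not use, although genes chosen to be high at 16 h and low at 168 h have to fall at some time in between. All 7 genes were lower at 96 h, and in each of them every 96 h library lay below every 24 h library. A gene was called at an adjusted p under 0.05 and a log2 difference beyond 1, which 10.1% of the 15057 genes tested met in the lower direction. Fam25c fell most, by 5.20 ± 0.29 on the log2 scale (SE, 3 libraries per group, limma adjusted p = 1.90e-11), and Cpn1 fell by 3.71 ± 0.15 (adjusted p = 3.75e-13). Calcoco2 fell by 3.47 ± 0.25 (adjusted p = 6.94e-10) and AU015836 by 3.14 ± 0.23 (adjusted p = 9.18e-10). The differences of Pim2 (-2.15 ± 0.08, adjusted p = 1.44e-13), Eef2k (-2.13 ± 0.25, adjusted p = 4.74e-07) and Ttc32 (-2.02 ± 0.21, adjusted p = 1.08e-07) were smaller, and the 95% intervals of these 3 overlapped each other and none of those of the other 4.

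Part of the decline was in place at 48 h, where 2.44% of all genes tested were called lower than at 24 h. Of the 7 genes, 4 were called lower, with log2 differences of -1.50 ± 0.25 for Calcoco2 (limma adjusted p = 0.000115), -1.40 ± 0.08 for Pim2 (adjusted p = 1.05e-09), -1.40 ± 0.29 for Fam25c (adjusted p = 0.000804) and -1.001 ± 0.21 for Ttc32 (adjusted p = 0.00104). The differences of Eef2k (-0.96 ± 0.25, adjusted p = 0.00502), Cpn1 (-0.82 ± 0.15, adjusted p = 0.000272) and AU015836 (-0.74 ± 0.23, adjusted p = 0.016) had the same sign and were under the fold minimum. Ttc32 sat at that minimum and Fam25c had an adjusted p of 0.0527 with a pseudocount of 0.1, so neither call at 48 h was firm. In Pim2 the step from 24 to 48 h made up most of the log2 fall to 96 h, while in Calcoco2, Cpn1, Fam25c, AU015836 and Eef2k the larger share came after 48 h.

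**Figure D3:**
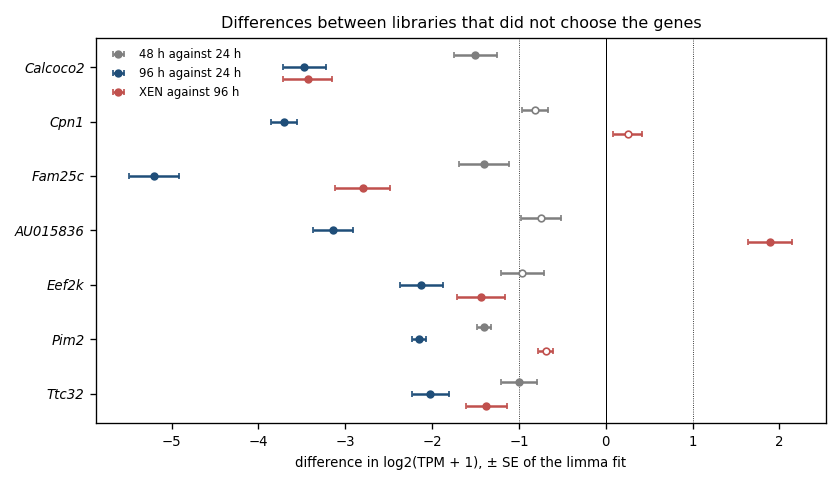
Difference in log2(TPM + 1) of each gene for 48 h against 24 h, 96 h against 24 h and XEN cells against 96 h, with bars for the SE of the limma fit. Filled points were called and open points were not, dotted lines mark the fold minimum of 1 either way, and AU015836 is the 1 gene called higher in XEN cells.

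Genes of the same pathways were called in both directions between 24 and 96 h, where 10.5% of all genes tested were called higher and 10.1% lower. Counts below include the member itself, and medians are log2 differences beside a median of -0.02 over all genes tested. Of 18 genes for autophagy receptors and ATG8 machinery, 3 rose and 2 fell (median 0.16). Those that rose were Gabarap, an ATG8 protein (1.68 ± 0.10, limma adjusted p = 1.00e-10), Tollip (1.10 ± 0.08, adjusted p = 6.19e-10) and the receptor gene Optn (1.10 ± 0.32, adjusted p = 0.00538). Beside Calcoco2, the gene that fell was Ulk1, the kinase that starts autophagy (-1.12 ± 0.16, adjusted p = 9.06e-06).

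Of 14 genes around the eEF2 kinase, 2 rose and 2 fell (median 0.16). Prkaa2, a catalytic subunit of AMPK, which activates the kinase, rose by 3.03 ± 0.22 from a mean of 2.98 to 31.7 TPM (limma adjusted p = 8.68e-10), and Rps6ka1, which encodes an RSK kinase that inhibits it, rose by 1.17 ± 0.09 (adjusted p = 8.72e-10). Eif4ebp1, a repressor of translation initiation, fell by 1.27 ± 0.14 (adjusted p = 2.53e-07) alongside Eef2k. In the list of 11 PIM and LIF-STAT3 genes, 2 rose and 3 fell (median 0.35). Pim1 fell with Pim2, by 1.95 ± 0.18 from 35.8 to 8.44 TPM (adjusted p = 1.47e-08), and Myc, a target of STAT3, fell by 3.62 ± 0.14 (adjusted p = 3.48e-13), whereas Lifr, the LIF receptor, rose by 2.65 ± 0.24 (adjusted p = 1.27e-08).

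Among 6 tested genes of the carboxypeptidase N/E subfamily, Cpn1 was the one that fell, and 2 rose (median 0.31). Cpm, a membrane-bound carboxypeptidase, rose by 2.53 ± 0.20 from 2.03 to 16.4 TPM (limma adjusted p = 2.58e-09), and Cpd, which acts in the secretory pathway, rose by 2.18 ± 0.11 from 7.78 to 38.7 TPM (adjusted p = 3.64e-12). Cpn1 over the same interval went from 43.7 to 2.43 TPM. Over the same hours 10 of 14 naive pluripotency factors fell and none rose (median -2.72), Nr0b1, Esrrb and Sox2 most, by 4.81, 3.86 and 3.43. Of 16 PrE markers 14 rose and none fell (median 2.42), and of 16 genes of the 2-cell-like state only 4 passed the filter on low values, of which Zscan4f rose, to a mean of 1.44 TPM. None of 10 feeder markers was called, and of 7 trophectoderm markers 4 rose and 2 fell.

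**Figure D4:**
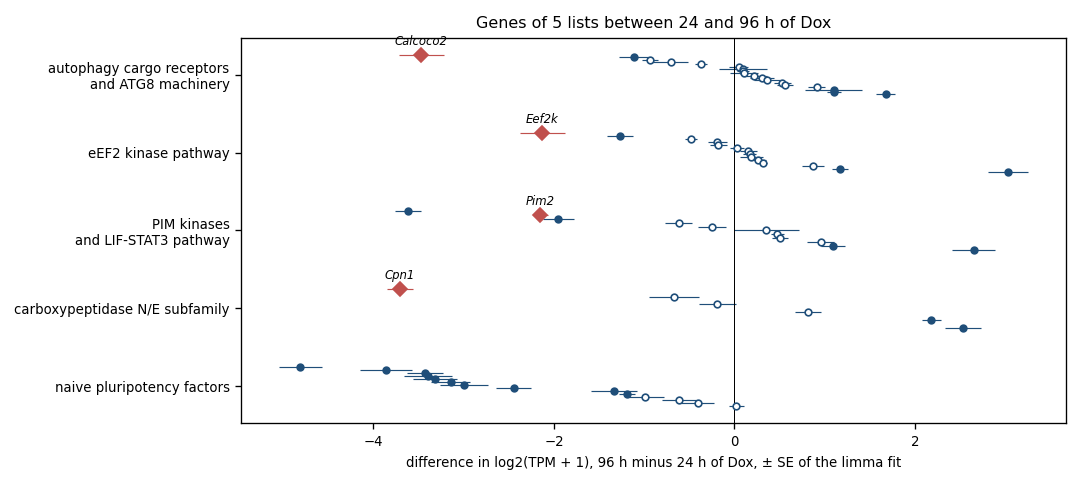
Difference in log2(TPM + 1) between 96 and 24 h of Dox for the tested genes of 5 lists, with bars for the SE of the limma fit. Red diamonds are the 4 genes with an early rise that belong to a list, filled circles other genes that were called and open circles those that were not, and in the 4 upper lists called genes lie on both sides of 0.

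In XEN cells the 7 genes did not share a direction. Calcoco2 measured 0.435 and 0.0405 TPM there, Ttc32 0.576 and 1.46 TPM and Eef2k 2.78 and 2.48 TPM. Fam25c was listed at 0.0202 TPM in one library and at 0 in the other. These 4 genes were lower in XEN cells than at 96 h, as were 8.75% of the genes tested: Calcoco2 by 3.43 ± 0.28 on the log2 scale (limma adjusted p = 5.91e-09), Fam25c by 2.80 ± 0.32 (adjusted p = 6.08e-07), Eef2k by 1.44 ± 0.28 (adjusted p = 0.000256) and Ttc32 by 1.38 ± 0.24 (adjusted p = 7.65e-05). The first 2 sizes depend on the pseudocount, since at 0.1 in place of 1 TPM they became -5.49 and -5.80.

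AU015836 went the other way. It measured 27.1 and 25.9 TPM in XEN cells, within the 24.3 to 32.7 TPM of untreated ES cells, against 5.62 to 6.88 TPM at 96 h. It was called higher than at 96 h by 1.89 ± 0.26 (limma adjusted p = 5.36e-06), as were 7.82% of the genes tested. Cpn1, at 3.66 and 2.57 TPM, was not called against 96 h (0.25 ± 0.17, 95% interval -0.09 to 0.60, adjusted p = 0.218). Both XEN libraries lay above the 168 h libraries at 0.071 to 0.274 TPM, but the genes were chosen for a low level at 168 h, so this is a description. Pim2, at 5.12 and 4.86 TPM, differed from 96 h by -0.69 ± 0.09 (adjusted p = 2.91e-06), under the fold minimum, and overlapped 168 h.

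To ask what Oct4 contributes at 48 h of Dox, siOct4 was compared with siCTL. AU015836 was called higher and Fam25c and Cpn1 lower with siOct4 only when the replicate number, or the set of consecutive numbers, was entered in the fit. The other 4 genes were not called. Without regard to pairs, none of the 7 was called by limma (2 at an unadjusted p under 0.05, Cpn1 and Fam25c), while 0.942% of the 6264 genes tested were called higher and 1.72% lower at a log2 difference beyond 0.5. Libraries of equal number deviated together in the 2 groups, and once the replicate number was entered as a block 3 of the 7 were called, 1 higher and 2 lower, where 2.43% of genes were called higher and 6.15% lower. The study itself compared endogenous Gata6 at day 2 with a paired T test over 6 independent knockdowns. The labels do not say whether libraries of equal number are those pairs. Consecutive numbers (1 and 2, 3 and 4, 5 and 6) also deviated together within a group. Their mean r was 0.39 in siCTL and 0.53 in siOct4, against -0.32 and -0.38 for other numbers. The 6 pairs may therefore not be independent, and the blocked p-values may be too small. With consecutive libraries averaged and no block, none of the 7 was called by limma (1 at an unadjusted p under 0.05, Fam25c).

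AU015836 was the gene called higher with the block. With siCTL its libraries ranged from 9.53 to 84.8 TPM (median 25.6) and with siOct4 from 25.9 to 118 TPM (median 63.6). The groups overlapped, but siOct4 was the higher in all 6 pairs, by 0.48 to 1.45 on the log2 scale, and the mean difference was 1.03 ± 0.53 without the block (limma adjusted p = 0.428) and 1.03 ± 0.16 with it (adjusted p = 0.00303). The libraries numbered 5 and 6 were the highest in both groups, at 84.8 and 76.8 TPM with siCTL and 118 and 107 TPM with siOct4, and without them the difference was 1.30 (adjusted p = 0.228 without the block).

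Fam25c and Cpn1 were the genes called lower with the block. Fam25c ranged from 10.1 to 83.1 TPM with siCTL (median 31.2) and from 7.45 to 26.0 TPM with siOct4 (median 14.7), with overlap, and was lower in 5 of 6 pairs. Its difference was -1.18 ± 0.43 without the block (limma adjusted p = 0.211) and -1.18 ± 0.26 with it (adjusted p = 0.0176). Cpn1 ranged from 11.1 to 32.2 TPM with siCTL (median 19.1) and from 7.07 to 15.1 TPM with siOct4 (median 11.2), and was also lower in 5 of 6 pairs. Its difference was -0.77 ± 0.27 (adjusted p = 0.190) and -0.77 ± 0.20 with the block (adjusted p = 0.0365). The pair against the trend was number 4 for Fam25c (0.33) and number 1 for Cpn1 (0.05), and in Cpn1 the pairs numbered 1 and 2 differed by -0.11 in their mean levels, those numbered 3 and 4 by -1.22 and those numbered 5 and 6 by -1.01.

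The other 4 genes were not called with or without the block, which does not show that they did not change. Calcoco2 ranged from 14.6 to 63.3 TPM with siCTL (median 22.9) and from 20.5 to 80.3 TPM with siOct4 (median 32.4), with a 95% interval of the log2 difference from -0.50 to 1.25. Eef2k had medians of 10.5 and 8.19 TPM (interval -0.79 to 0.50), Pim2 of 10.6 and 7.32 TPM (interval -0.85 to 0.19) and Ttc32 of 10.7 and 10.2 TPM (interval -0.68 to 0.16). Pim2 was lower with siOct4 in 5 of 6 pairs, Eef2k and Ttc32 in 4 and Calcoco2 in 1.

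Markers of other states moved with siOct4 as well. The 7 listed of 9 trophectoderm markers summed to between 434 and 1021 TPM with siOct4 and between 142 and 196 TPM with siCTL. The libraries numbered 5 and 6, highest for AU015836 in both groups, had the highest siOct4 sums at 936 and 1021 TPM. With siCTL the same numbers had the lowest sums, at 157 and 142 TPM. Krt18 and Krt8 made up most of these sums, and none of the 7 markers had a mean of 0. Both keratins also rose along the induction, Krt8 from a mean of 7.58 TPM at 0 h to 361 TPM at 168 h and Krt18 from 7.48 to 235 TPM. In XEN cells their means were 433 and 228 TPM, so a high sum is not particular to trophectoderm here. Cdx2, which defines the lineage, had means of 2.30 TPM with siOct4 and 0.969 TPM with siCTL. With the block 5 of the 7 were called higher, while Eomes differed by -0.54 and was not called. The sum of the 12 listed naive factors was 476 to 863 TPM with siOct4 and 1200 to 1931 TPM with siCTL. That sum includes Pou5f1, the target of the siRNA, at 282 to 387 TPM with siOct4 and 782 to 1194 TPM with siCTL. The fall of the sum was thus for the most part that of Pou5f1, whose means were 331 TPM with siOct4 and 957 TPM with siCTL. With the block 5 of the 12 factors were called lower, Pou5f1 among them, and 1 higher. Nanog (0.09), Dppa3 (0.01) and Tfcp2l1 (-0.16) were not called. The sums of the 16 PrE markers overlapped between the groups (4178 to 7949 TPM with siOct4 and 5621 to 12785 TPM with siCTL). They were lower with siOct4 in all 6 pairs, at 62.2% to 99.98% of siCTL. The markers were unlike: with the block Cubn, Amn and Hnf4a differed by -2.55, -1.43 and -1.23, and Sparc, Col4a1 and Col4a2 by 0.01, -0.02 and -0.11. Gata6 itself had means of 85.9 TPM with siOct4 and 121 TPM with siCTL and was not called (-0.50, limma adjusted p = 0.326, and 0.0503 with the block). Those of the 5 listed feeder markers overlapped (27.8 to 213 and 26.1 to 210.1 TPM) and were lower in 3 of 6 pairs. The part of these states in the differences of AU015836, Fam25c and Cpn1 was not tested.

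Calls in the lists with siOct4 stand beside shares over all genes tested of 0.942% higher and 1.72% lower without the block. With the block these shares were 2.43% and 6.15%. The lists are short, so a list without a call is not a result about its pathway. Without the block, no gene of the autophagy (11 tested), eEF2 kinase (6 tested), PIM and LIF-STAT3 (10 tested) or carboxypeptidase (5 tested) lists was called, and no feeder marker (5 tested). Of 12 naive factors 1 was lower, the target Pou5f1, while 2 of 16 PrE markers were lower and 3 of 7 trophectoderm markers were higher. With the block the counts were 0 for autophagy and feeder markers, 1 higher and 1 lower for the eEF2 kinase list (Prkaa2 and Rps6ka1), 2 lower for the PIM and LIF-STAT3 list (Bcl3 and Lifr) and 2 lower for the carboxypeptidases, Cpm (-0.71 ± 0.18, limma adjusted p = 0.0273) beside Cpn1. With the block 5 naive factors, Pou5f1 among them, were lower and 1 higher, 8 PrE markers were lower and 5 trophectoderm markers were higher.

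**Figure D5:**
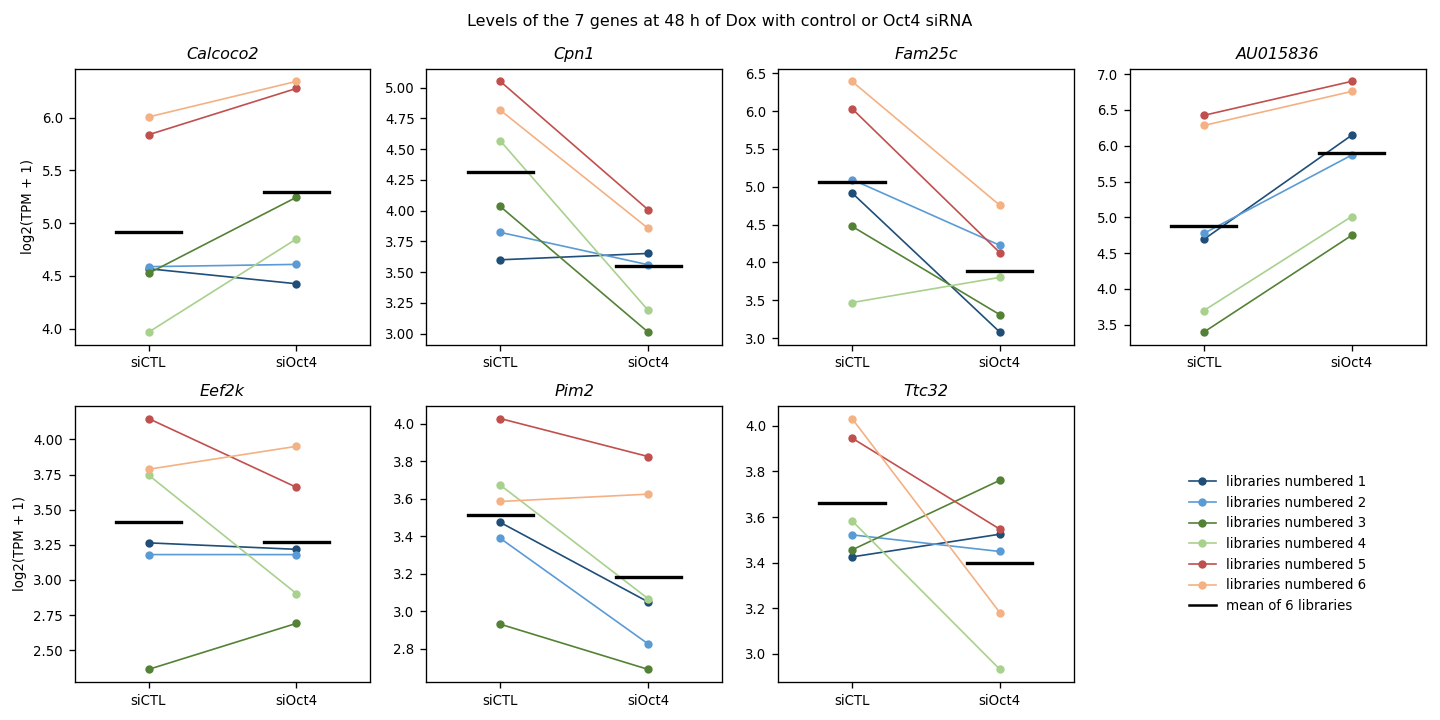
Levels of the 7 genes as log2(TPM + 1) after 48 h of Dox with control siRNA (siCTL) or Oct4 siRNA (siOct4), with lines joining libraries of equal number and black bars for the means of 6 libraries. The lines of AU015836 rise in all 6 pairs, those of Fam25c and Cpn1 fall in 5 of 6, and libraries 5 and 6 are the highest for Calcoco2 and AU015836 in both groups.

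The genes whose course was most like that of the 7 were looked for by Pearson correlation of group means of log2(TPM + 1) over the 8 groups, among 9357 genes whose means spanned at least 1. Nearest to the mean standardised profile of the 7 were Slc7a8, AU022751, Rasd2, Fmn2, Id3, Bik, Gpc1, Coro2b, Sycp1 and Etv2, with r from 0.992 to 0.983. Id3, an inhibitor of bHLH factors and a target of BMP signalling, had the highest level of these. It went from a mean of 31.2 TPM at 0 h to 57.3 TPM at 24 h and 11.9 TPM at 168 h. Several of the others lay near the floor, with highest group means of 1.54 TPM for Slc7a8, 1.77 for Bik, 1.84 for AU022751 and 1.94 for Fmn2. Slc7a8, Bik and AU022751 were under 1 TPM at 0 h and passed the filter only through groups where they were high, which favours this shape. Among single genes, Calcoco2 was nearest to Whamm (0.989), Fam25c to Gm19553 (0.994) and Pim2 to Ndor1 (0.995). Both Eef2k (0.993) and Ttc32 (0.995) were nearest to Gm13493. Gm19553 and Gm13493 were also low, with highest group means of 1.79 and 2.80 TPM. Cpn1 was nearest to Gabarapl2 (0.965), an ATG8 gene that went from 93.0 TPM at 0 h to 219 TPM at 16 h and 89.1 TPM at 168 h, and AU015836 to Telo2 (0.975). Correlations over 8 group means are descriptions, and all points share the same libraries.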

How the data were processed

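RNA-seq was analysed from 23 libraries of the induction series and 12 of the siRNA series. Per the labels and the study's methods, feeders were adsorbed, stranded polyA libraries were sequenced in pairs, and reads were aligned to mm10 with STAR and quantified with RSEM (versions and annotation not given in the sources used here). The authors deposited TPM, after omitting outliers seen by principal component analysis. TPM keep no read counts, so depth is unknown and the spread between libraries is the error used. The siRNA table held 6275 genes that the authors called GATA6-responsive, with column totals of 274527 to 355895 TPM, so levels were compared only within a table. Its group mean columns were not used, nor were its text classes from the authors' own comparisons, which give the response cluster and the effect of siOct4.

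The row of highest mean stood for each of 60 symbols on more than 1 row. Tested genes had a group mean of 1 TPM or more in some group (15057 and 6264, with all 7 genes in both). Tests were run on log2(TPM + 1) with limma 3.58.1 in R 4.3.3 (eBayes with trend and robust options, Benjamini-Hochberg adjustment over all genes tested), with 1 fit per series, and were tested on simulated data. Calls needed an adjusted p under 0.05 and a log2 difference above 1, or 0.5 for siRNA. Alternatives were a pseudocount of 0.1, no filter, a mean of 5 TPM, median-of-ratios rescaling, no fold minimum, only the groups compared, each library left out in turn, averaged consecutive siRNA libraries and the replicate number as a block. Leaving out libraries 5 and 6 and a factor of consecutive numbers were added after the data were seen.

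Groups and numbers came from the sample titles. In the siRNA series, deviations from the group means correlated between libraries of equal number in all 6 pairs (r from 0.24 to 0.71). The mean over all unequal numbers was -0.06, of which consecutive numbers (1 and 2, 3 and 4, 5 and 6) gave 0.25 and the others -0.14. Apart from number 3 (0.71), equal numbers gave 0.24 to 0.28, near the mean of consecutive numbers. These values therefore do not tell 6 pairs from 3 sets of consecutive numbers. The number was used as a block in an alternative fit, and blocked values are given where they change a call. No label explains the likeness of equal or of consecutive numbers. The 7 genes and all gene lists were chosen with earlier results of these data known. Genes named from a list were those called with the largest differences, and each list gives 1 to 4. Dnmt3a, Dnmt3b, Foxh1, Ascl2, Id3 and the genes lost or gained with the block were named after their values were seen. Positions came from GENCODE M21 and promoters from RefSeq GRCm38.p6. Figures were drawn with matplotlib 3.10.9 in Python 3.11.15.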

Additional observations from a re-analysis of the deposited data

How the results depend on the processing

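The falls of all 7 genes between 24 and 96 h and the 5 calls in XEN cells held under every alternative run, except that without a fold minimum 6 genes were called in XEN cells. At 48 h against 24 h, 7 genes were called without a fold minimum, and 3 to 5 when 1 library was left out. Ttc32 lost its call with rescaling (-0.98) and without 24 h library 3 or 48 h library 1 or 2 (down to -0.93), and Eef2k gained a call without 24 h library 1 or 2 or 48 h library 1 or 3 (up to -1.04), since both sit near the fold minimum. Without a fold minimum the counts over all genes rose from 3095 to 9229 for 96 h against 24 h, from 837 to 5645 for 48 h against 24 h and from 2496 to 7499 for XEN cells against 96 h, and a pseudocount of 0.1 gave 1483 for 48 h against 24 h. Replicate numbers did not pair the induction libraries (mean r 0.04 for equal and -0.02 for unequal numbers), and the block there gave 3103, 841 and 2501 calls and the same number of the 7 genes called.

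In the siRNA series the count over all genes was 167 and moved to 537 with the replicate block (3 of the 7 genes), 446 with consecutive numbers as a factor (the same 3 genes, adjusted p from 0.00196 to 0.031), 55 without libraries 5 and 6 and 0 with consecutive libraries averaged, where limma found 483 genes at an unadjusted p under 0.05 in 3 samples per group. Leaving out 1 library gave 87 to 322 calls. The highest was without siCTL 3, and counts of 111 or fewer came without siCTL 5 or 6 or siOct4 1, 2 or 4. None of the 7 genes was called in the fits that left out libraries. Rescaling gave 297 calls, 48.5% of them higher against 35.3%, and moved the median difference of all genes from -0.12 to 0.01. After rescaling, AU015836 differed by 1.18, Fam25c by -1.04 and Cpn1 by -0.63, none called, and no gene changed sign. The cause of these shifts was not tested. The unknown depth limits levels under about 1 TPM, such as Cpn1 and Fam25c at 168 h.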
